A study of Mus musculus with 2 samples.

Results

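The genes described here encode the enzymes that write, copy and erase DNA methylation, with a methyl-binding protein and the Polycomb methyltransferases. They were chosen by name from a fixed list of 10 mouse genes: Dnmt1, Dnmt3a, Dnmt3b, Tet1, Tet2, Tet3, Uhrf1, Mbd2, Ezh2 and Ezh1. Every probe set that the platform annotation pairs with exactly 1 of these symbols was taken, which gave 26 probe sets. All 10 were among the 9773 genes whose level reached log2 5, the floor used here, in either array. Affymetrix arrays had been hybridised with RNA from regulatory T cells (Treg) of female mice aged 6 to 8 weeks, sorted from spleen and lymph nodes. There was 1 array from Foxp3 Cre/wtS Stat3 fl/wt donors, with 1 floxed Stat3 allele, and 1 array from Foxp3 Cre/wtS Stat3 fl/fl donors, with both alleles floxed. Stat3 is the transcription factor through which IL-6 and IL-10 signal, and the comparison asks which transcripts of Treg depend on it. Both groups carried Cre at a Foxp3 allele and at least 1 floxed Stat3 allele, so neither is a wild type. Foxp3 is X-linked, so in a female with 1 Cre allele some Treg use the other allele and keep Stat3, and the labels leave unsaid if those were sorted away. The sources used here do not give the number of mice behind each array.

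DNA methylation marks cytosines that precede a guanine (CpG sites) and usually keeps promoters and enhancers silent. Dnmt3a and Dnmt3b place the mark de novo, while Dnmt1 copies it to the new strand after replication, guided by Uhrf1, which binds hemimethylated CpG sites. Tet enzymes oxidise the methyl group and so start its removal, and Mbd2 reads methylated CpG sites and recruits the NuRD repressor complex. Ezh2 and Ezh1 are the alternative catalytic subunits of the Polycomb complex PRC2, which methylates histone H3 at K27, a separate silencing mark. In Treg, a stretch of the Foxp3 gene is demethylated, and this demethylation is known to keep Foxp3 expression stable through cell division.

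Sequence around the annotated starts of these genes was taken from RefSeq (build GRCm38.p6), in windows from 250 bases before to 50 bases after a start. Windows were found for 9 members, 14 windows in all, and Mbd2 had no entry. Dnmt1 and Dnmt3a have 3 windows each, Uhrf1 has 2, and 2 of the Dnmt3a windows overlap. The number of CpG sites per window ran from 2 to 57. The ends of that range are shown by the last 60 bases before a start, 5′ to 3′ on the gene's strand, with CpG sites in capitals. The first stretch lies at chr3:133544391-133544450 (minus strand) and the second, before the most upstream of the 3 Dnmt1 starts, at chr9:20959889-20959948 (minus strand).
Tet2: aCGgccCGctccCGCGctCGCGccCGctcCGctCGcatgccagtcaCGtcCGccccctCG
Dnmt1, upstream start: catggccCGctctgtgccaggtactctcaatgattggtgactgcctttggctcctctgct

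The Tet2 stretch holds 12 CpG sites and the Dnmt1 stretch 1. Member windows had a median of 26.5 CpG sites, against 7 over all 32851 windows of this length. The 10261 windows of genes measured on these arrays had a median of 21, and 9 of the 14 member windows lay above it.

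**Figure D1:**
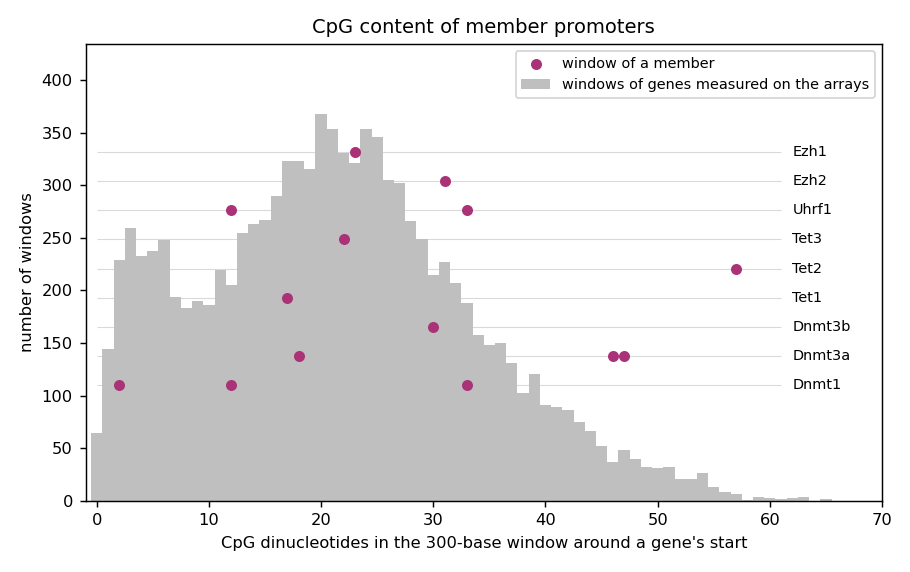
CpG dinucleotides per 300-base window (x axis) against the number of windows (y axis). Grey bars are windows of genes measured on the arrays; each point is a window of a member, placed on a line of its own gene whose height has no meaning. Member windows run from 2 (Dnmt1, upstream start) to 57 (Tet2).

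Letters that Stat3 dimers can bind, TTCNNNGAA, were in none of the 14 member windows on either strand, and 6.83% of the windows of measured genes hold them. With so few windows, 0 of 14 is near that background. Letters of the E2F type, which mark many genes of DNA replication, were searched on both strands as TTTGGCGC, TTTCCCGC, TTTGCCGC and TTTCGCGC. They were in 3 of 14 member windows, against 4.07% of the windows of measured genes. These windows belong to Dnmt1, Uhrf1 and Ezh2, and 1 stretch of each is shown with the matching letters in capitals. The Dnmt1 stretch is chr9:20952809-20952868 (minus strand), with the match on the opposite strand, 219 bases before the most downstream start. The Uhrf1 stretch is chr17:56304102-56304161 (plus strand), with the match 185 bases before the more downstream Uhrf1 start. The window of the other Uhrf1 start held no such letters. The Ezh2 stretch is chr6:47595009-47595038 (minus strand), with the match 3 bases after the Ezh2 start.
Dnmt1: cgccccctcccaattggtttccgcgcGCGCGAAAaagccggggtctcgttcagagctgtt
Uhrf1: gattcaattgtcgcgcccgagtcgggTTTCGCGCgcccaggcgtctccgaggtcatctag
Ezh2: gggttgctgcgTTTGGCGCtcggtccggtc

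The Dnmt1 window holds a further match, TTTGGCGC, 33 bases after the same start, and no match overlaps another. A match is a run of letters and says nothing of whether a factor binds there.

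A single array per genotype gives no replicate error, so the values below have no test and the number of arrays limits their precision. All values are log2 GCRMA levels, and every difference is the fl/fl level minus the fl/wt level. Of the 26 member probe sets, 20 reached log2 5 in both arrays and 6 were under it in both. GCRMA pulls dim probe sets to a low end without order, so the 6 are given as levels only. Probe sets differ in brightness for reasons other than transcript number, so a level is set only against the same probe set in the other array.

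**Figure D2:**
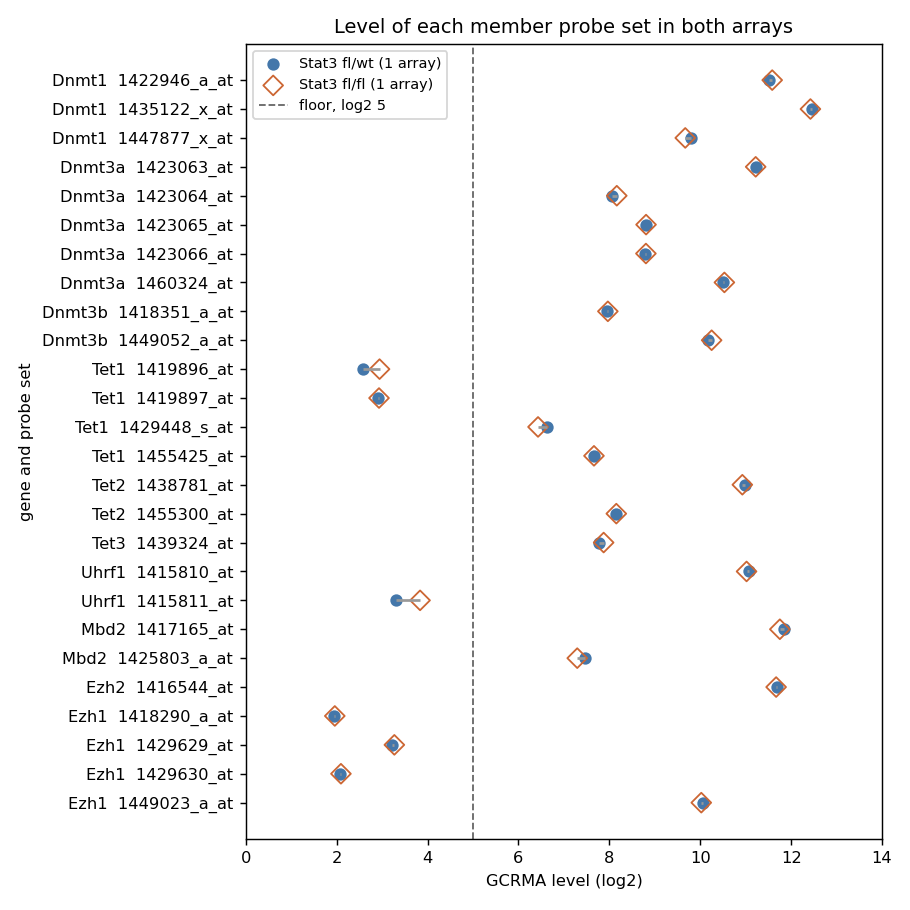
GCRMA level (x axis, log2) of each of the 26 member probe sets (y axis) in the fl/wt array (filled circles) and the fl/fl array (open diamonds). For the 20 probe sets right of the dashed floor at log2 5 the symbols lie within 0.20 of each other.

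No member differed by 1.5-fold. Over the 20 measured probe sets the difference ran from -0.20 to 0.11, with 8 higher and 12 lower in fl/fl and a median of -0.0076. By the brightest probe set of each gene, Dnmt3b and Tet3 were higher and the other 8 members lower, with a median of -0.029. The median over all 9773 measured genes was -0.0045, with 4644 higher and 5129 lower. Among the members counted as lower, Dnmt3a (-0.0057) and Tet1 (-0.0064) were close to that median. A 1.5-fold difference was itself rare in these arrays: it was reached by 0.246% of all genes in the higher direction and 0.399% in the lower, and 0 of 10 members is near that background. At 1.1-fold, 0 of 10 members passed, against 16.9% of all genes. Of the 20 measured member probe sets 2 passed 1.1-fold, both lower, against 20.0% of all such probe sets in either direction and 10.5% in the lower one. The median size of a member difference, 0.044, was close to that of all genes, 0.053.

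**Figure D3:**
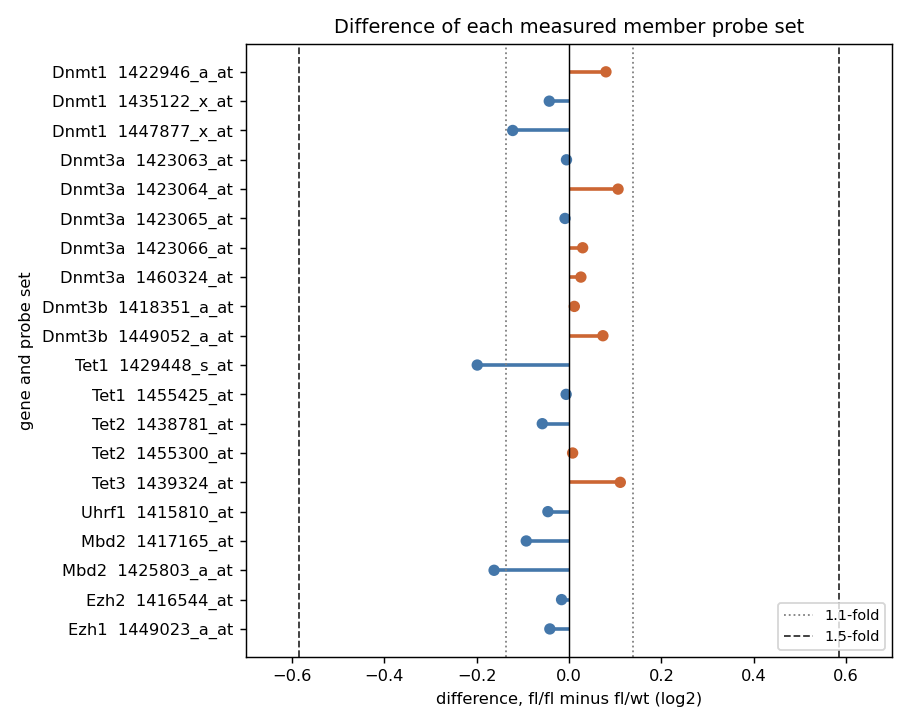
Difference between the arrays (x axis, fl/fl minus fl/wt, log2) for each of the 20 measured member probe sets (y axis), 1 line a probe set. Lines mark 1.1-fold (dotted) and 1.5-fold (dashed); the Tet1 probe set at -0.20 and the Mbd2 probe set at -0.16 lie past the first and none past the second.

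Among the de novo methyltransferases, Dnmt3a had the most probe sets, all 5 of them measured and drawn from 1 source sequence by the platform annotation. Its brightest read 11.23 (fl/wt) and 11.22 (fl/fl), a difference of -0.0057. Of the other 4, 1423064_at read 8.06 and 8.16, a difference of 0.11, and 1460324_at read 10.51 and 10.53, a difference of 0.026. The remaining pair, 1423065_at and 1423066_at, differed by -0.0088 and 0.029. Dnmt3a was thus read within 0.11 by 5 probe sets, 3 of them higher and 2 lower. Dnmt3b read 10.18 (fl/wt) and 10.25 (fl/fl) by 1449052_a_at, a difference of 0.073. Its dimmer probe set, 1418351_a_at, read 7.96 and 7.97, a difference of 0.011 in the same direction.

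For maintenance, the Dnmt1 probe sets did not share a direction. The brightest, 1435122_x_at, read 12.47 (fl/wt) and 12.42 (fl/fl), a difference of -0.043. Its suffix marks probes that may also match other transcripts, as does that of 1447877_x_at, which read 9.79 and 9.67, a difference of -0.12. The one Dnmt1 probe set without that mark, 1422946_a_at, read 11.50 and 11.58, a difference of 0.080. The sign of the Dnmt1 difference therefore depends on which probe set stands for the gene. Uhrf1, the partner that brings Dnmt1 to newly copied DNA, read 11.06 and 11.02 by 1415810_at, a difference of -0.046. A further Uhrf1 probe set, 1415811_at, was under the floor at 3.30 and 3.84.

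The Tet enzymes were read by 5 measured probe sets, the farthest apart by 1.15-fold. Tet2 read 10.98 (fl/wt) and 10.93 (fl/fl) by 1438781_at, a difference of -0.058. Its other probe set, 1455300_at, read 8.15 in both arrays, a difference of 0.0076. Tet3 had a single probe set, which read 7.76 and 7.87, and its difference of 0.11 (1.08-fold) was the highest of the 10 members. Tet1 read 7.67 (fl/wt) and 7.66 (fl/fl) by 1455425_at, a difference of -0.0064. The dimmer 1429448_s_at, whose suffix marks shared probes, read 6.63 and 6.43, and its difference of -0.20 was the lowest of all member probe sets. For Tet1 the array thus holds one probe set with hardly any difference and one at 1.15-fold lower. The last 2 Tet1 probe sets were under the floor, 1419896_at at 2.57 and 2.94 and 1419897_at at 2.92 and 2.93.

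Mbd2 was the member with the lowest difference by its brightest probe set, and both of its probe sets were lower in fl/fl. The brighter, 1417165_at, read 11.84 (fl/wt) and 11.75 (fl/fl), a difference of -0.093. The dimmer, 1425803_a_at, read 7.46 and 7.29, a difference of -0.16 (1.12-fold). Of the 6 members with at least 2 measured probe sets, Mbd2, Tet1 and Dnmt3b had theirs in 1 direction, and Dnmt1, Dnmt3a and Tet2 had probe sets of both directions. Mixed directions were common in general, at 61.3% of the 4227 genes with at least 2 measured probe sets. The SD of differences between probe sets of the same gene was 0.074 over these 6 members and 0.14 over all such genes. Each member's difference by its brightest probe set was under the latter. That SD pools probe sets of all levels, dim ones included, and is close to 1.1-fold, so this repeats the 1.1-fold count above.

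Both Polycomb methyltransferases were close to equal in the arrays. Ezh2, the form that predominates in dividing cells, read 11.69 (fl/wt) and 11.67 (fl/fl) by its single probe set, a difference of -0.016. Ezh1, the form known from resting cells, read 10.06 and 10.02 by 1449023_a_at, a difference of -0.042. The other 3 Ezh1 probe sets were under the floor in both arrays: 1418290_a_at stood at 1.95 and 1.96, 1429629_at at 3.21 and 3.27, and 1429630_at at 2.08 and 2.09.

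How far 2 arrays differ depends on level, so the members were also set beside probe sets of like brightness. From log2 7 to 9, the central range from the 5th to the 95th percentile was -0.27 to 0.26, and all 8 member probe sets there lay inside it. From log2 9 to 11 the range was -0.15 to 0.14, with all 5 member probe sets inside. At log2 11 and above it narrowed to -0.091 to 0.090, and 1 of 6 member probe sets, the brighter one of Mbd2 at -0.093, lay just outside. Between log2 5 and 7 the range was -0.43 to 0.37, and the only member probe set there, the dim one of Tet1, lay inside. By construction 10% of all probe sets in a level range lie outside.

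**Figure D4:**
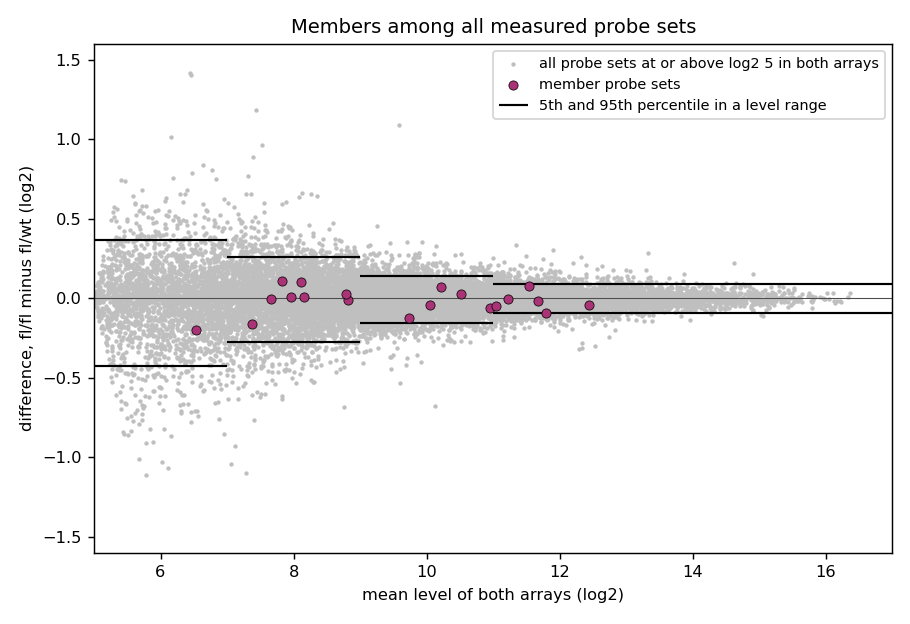
Difference between the arrays (y axis, fl/fl minus fl/wt, log2) against the mean level of both arrays (x axis, log2). Grey points are all 16493 probe sets that reached log2 5 on both arrays, coloured points the 20 of the members, and black lines the 5th and 95th percentile in each level range; 1 member probe set, of Mbd2 at -0.093, falls outside these lines.

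Partner genes of the members were described from 8 lists, with 104 genes in all, of which 91 were measured. Of these, 47 were higher and 44 lower in fl/fl, and Epop alone passed 1.5-fold. Over all 9773 measured genes, 4644 were higher and 5129 lower, and 0.246% and 0.399% passed 1.5-fold in those directions. The list count of 1 in 91 is near that background. Genes that assist, accompany or read DNA methylation had 8 of 12 measured members higher and 4 lower (median 0.031). Mbd4, a glycosylase that repairs mismatches at CpG sites, read 7.53 (fl/wt) and 7.76 (fl/fl), a difference of 0.23. The RNA methyltransferase Trdmt1, a relative of the DNA enzymes, differed by 0.094. The methyl-CpG readers Zbtb4 (0.064) and Mbd1 (0.063) followed, with other probe sets of opposite direction for both. The enzymes downstream of Tet oxidation, with base excision repair genes, had 6 of 13 higher and 7 lower (median -0.0046). Cxxc5, a CpG-binding protein, differed by 0.18 at a dim level (5.63 and 5.81), the ligase Lig3 by -0.13, the uracil glycosylase Smug1 by -0.092 and the stress-induced adapter Gadd45a by -0.070. A second probe set of Lig3 differed by 0.51, in the opposite direction.

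In the list of PRC2 partners and H3K27 demethylases, the median was 0.0070, with 6 of 11 measured genes higher and 5 lower. Epop, which joins PRC2 to elongin, read 6.26 (fl/wt) and 5.43 (fl/fl), a difference of -0.82 (1.77-fold lower). It was read by a single probe set with shared probes, and with a floor of log2 6 its difference was -0.26. The demethylase Kdm6b differed by -0.19, with other probe sets from -0.077 to 0.024. Its relative Kdm6a differed by 0.078 and the core subunit Suz12 by 0.062, and both had other probe sets of opposite direction. The core subunits Eed (-0.022) and Rbbp4 (0.0070), which complete PRC2 with Ezh2, differed by little. PRC1, the Polycomb complex whose chromobox forms bind the PRC2 mark, had 9 of 14 higher and 5 lower (median 0.021). Its chromobox readers Cbx8 (0.22), Cbx7 (-0.16) and Cbx6 (-0.11) did not share a direction, and a second probe set of Cbx7 differed by 0.13. Pcgf1 was at 5.17 in fl/wt and under the floor in fl/fl (4.62), so that -0.17 bounds its difference from below in size.

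NuRD, the complex that Mbd2 recruits, had 3 of 9 measured subunits higher and 6 lower (median -0.020). Mta2 (-0.10) and Mta1 (0.10) differed most, in opposite directions, followed by the remodeller Chd4 (-0.069) and the deacetylase Hdac2 (0.046). Both other probe sets of Chd4 were higher, by up to 0.35. The methyl donor cycle, which supplies the methyl group to the DNA and histone methyltransferases, had 5 of 10 higher and 5 lower (median 0.0048). Ahcy, which clears the inhibitory product of methylation, differed by -0.065, the methionine synthase Mtr by -0.061, Mat2b, a regulatory subunit of the enzyme that makes the methyl donor, by -0.051 and Ahcyl2 by 0.042.

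Dnmt1, Uhrf1 and Ezh2 are usually expressed with the cell cycle, so replication and proliferation genes were set beside them. Of 17 measured, 9 were higher and 8 lower (median 0.0028). Tyms (-0.22, dim at 5.71 and 5.50), the replication licensing factor Cdc6 (0.21), E2f1 (-0.089) and Ccna2 (0.055) differed most. A second Ccna2 probe set stood at -0.059. The proliferation marker Mki67 read 12.60 and 12.57. Genes known for Treg-specific demethylated regions had 5 of 6 members measured, 1 higher and 4 lower (median -0.025). Il2ra differed by -0.10, Ikzf4 by 0.096, Ctla4 by -0.043 and Ikzf2 by -0.025. The other probe sets of Ikzf4 (-0.14) and Ikzf2 (0.049) went the opposite way, and Ikzf4 is the 1 gene of this list counted as higher. Foxp3 itself was under the floor in both arrays, at 4.09 and 3.52, where levels have no order.

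**Figure D5:**
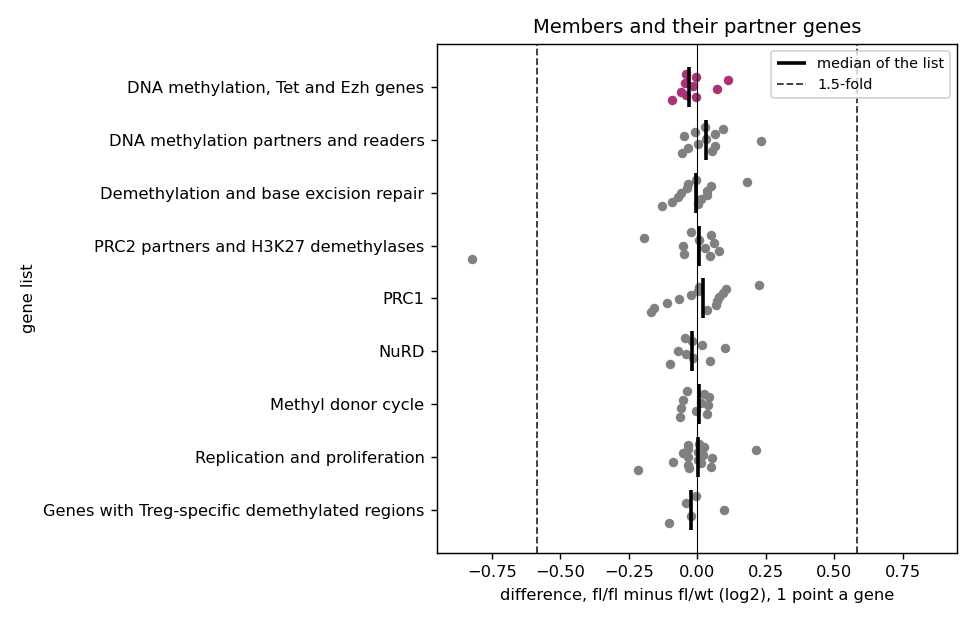
Difference between the arrays (x axis, fl/fl minus fl/wt, log2) of each measured gene in the member list and the 8 partner lists (y axis), 1 point a gene, with the median of each list as a black bar. All points but Epop, at -0.82, lie between the dashed lines at 1.5-fold.

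Several facts of the arrays as a whole bear on these values. Stat3 was read by 3 measured probe sets at -0.083 to -0.0083, so none of them showed a large loss in fl/fl. Their place relative to the deleted exons is unknown here, so they check no label and each direction rests on the labels alone. How far Stat3 was lost in the sorted cells was not tested. Of the Treg markers Il2ra, Ctla4, Ikzf2 and Tnfrsf18 were well above the floor and Foxp3 was not. By the brightest probe set these 4 were all lower in fl/fl, as were 5129 of all 9773 measured genes. Tnfrsf18 (-0.0060) was close to the median of all genes (-0.0045), and a second Ikzf2 probe set was higher (0.049). The 4 had a summed linear level of 65207 (fl/wt) and 63250 (fl/fl), at a ratio of 0.970. For the 10 members the same ratio was 0.975, and whether the Treg marker difference has a part in it was not tested. A summed linear level weighs bright probe sets most. The brightest of the members, 1435122_x_at of Dnmt1, carries the suffix of shared probes, and without such probe sets Dnmt1 differed by 0.080. Transcripts of other cells were present in both arrays: 6 of 7 myeloid markers were measured, all but Itgam, with a summed linear level of 58727 in fl/wt and 58566 in fl/fl. The 5 measured T cell markers summed to 72435 and 73453. Of 6 B cell markers 4 were measured, at 2118 and 1996, and Pax5 was under the floor. Of the 4 CD8 and NK markers Cd8a and Cd8b1 were measured, at 684 and 755, and Ncr1 was under the floor. Of the red cell markers Alas2 was measured, at 76.6 and 62.9, and Hba-a1 and Klf1 were not. Those cells also express members of the set, and their part in the member levels was not tested. In bulk samples, fewer cells of a type and less RNA per cell cannot be told apart.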

How the data were processed

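Levels were taken from the authors' deposited table of log2 values, 45101 probe sets on 2 arrays. The submitters' processing notes name GCRMA; for its version, settings and the arrays it ran on, nothing is given in the sources used here. It corrects background by probe sequence and sets the arrays on a common scale, so a shift of all transcripts would not be seen. Symbols come from the platform annotation, with 34945 probe sets of a single symbol that are not controls; all 26 member probe sets matched RefSeq by gene identifier. No genome build is named for the values.

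Differences are fl/fl minus fl/wt. A gene stands by its probe set of highest mean; genes reaching log2 5 in either array were kept, with lower values set to 5. With 1 array a group there is no test; 1.5-fold is the call and 1.1-fold a description. All members are named, with the 4 largest differences of each list; a few further list genes (Eed, Rbbp4, Mki67) were named after their values were seen. With 2 arrays, likeness of pattern between genes cannot be measured. Members and lists were chosen with earlier results of these data known. The steps were tested on simulated data. Python 3.11.15, pandas 2.3.3, numpy 2.4.6 and statsmodels 0.14.6 were used.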

Additional observations from a re-analysis of the deposited data

How the results depend on the processing

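All alternatives were planned. The median over the 10 members ran from -0.033 to -0.011 over 9 alternatives, and 0 members passed 1.5-fold under each. No member value shifted beyond 0.14, the spread (SD) between probe sets that read 1 gene. That SD is larger than every member difference by the brightest probe set, so a sign can change within it. The sign changed for 2 members: Dnmt1 was 0.080 without probe sets of shared suffix, and Dnmt3a was 0.026 as the median of its probe sets. The counts of all genes past 1.5-fold, 24 higher and 39 lower, were sensitive to the low end: 44 higher with a floor of log2 4, 14 lower with a floor of log2 6, 76 and 95 with no filter or floor, and 13 higher and 10 lower after adding 32 to linear values. At 1.1-fold they were 759 higher and 888 lower, and at 2-fold 3 higher and 2 lower, by construction. Of 80 list values, 78 moved by less than that SD divided by the square root of the list's measured size. The exceptions were the demethylation and repair list without shared suffixes (-0.048; the cause was not tested) and the mean of the PRC2 list (-0.079), which Epop at -0.82 enters. For 5 of 8 lists the value changed sign under some alternative. The limit used for lists is larger than the size of each list's median, so a value can change sign and stay within it. No scaling moved the median of all genes by 0.1. No paired analysis was possible because each genotype has 1 array, and for the same reason no replicate could be left out. Probe sets under log2 5 have no readable difference, which leaves Uhrf1 and Ezh1 on a single probe set each; Tet3 and Ezh2 had only 1 to begin with.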
